A study of Mus musculus with 6 samples.

Results

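Semaphorins, plexins and neuropilins form the ligands, receptors and coreceptors of a guidance signalling system. Genes of this system were taken from a table of array values for PDGFRα-positive fibroblasts of the mouse embryo by their symbols, from Sema3 to Sema7, Plxna to Plxnd, and Nrp1 and Nrp2. Where the array held several probe sets for a gene, that with the highest 6-array mean was used. This gave 31 of the 22180 genes measured: 20 semaphorins, 9 plexins and 2 neuropilins. The cells came from the dorsal body wall of 129SV embryos at stage E14.5 that carried 1 Ebf2(GFP) allele beside a normal allele of Ebf2, an early B cell factor whose reporter marks precursors of brown and beige fat. They were dissociated with collagenase and dispase, stained and sorted, and RNA was hybridised to Affymetrix arrays without culture. The first group, labelled Ebf2(GFP)+:Pdgfra+, were cells positive for both GFP and PDGFRα, a growth factor receptor of mesenchymal cells (n = 3 arrays). The second, labelled Ebf2(GFP)-:Pdgfra+, were PDGFRα-positive cells without GFP (n = 3 arrays). Every embryo of both groups was described as carrying the reporter allele, and the comparison asked how these sorted neighbours differ. Whether a replicate is a single embryo, a litter or a pool is not given in the sources used here. The p-values therefore reflect the spread among these 6 samples alone, part or all of which may be technical.

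Semaphorins share an extracellular sema domain and were first described as repellents of growing axons. The class 3 members are secreted, those of classes 4, 5 and 6 span the membrane, and Sema7a is held by a lipid anchor. They signal through plexins, whose cytoplasmic part acts on small GTPases and so changes adhesion and the cytoskeleton. Most class 3 semaphorins need a neuropilin to bind their plexin, and neuropilins also bind vascular endothelial growth factors. In the embryonic trunk the system is known for steering spinal nerves, neural crest cells and blood vessels through the mesenchyme.

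Values are log2 expression levels, changes are GFP-positive minus GFP-negative, and errors beside changes are limma's moderated standard errors. A gene is said to have risen or fallen where limma's adjusted p over all 22180 genes was under 0.05. Arrays of a group correlated at 0.9951 to 0.9969 over genes, and those of different groups at 0.9845 to 0.9911. The sort was visible in Ebf2, with levels of 8.65 ± 0.53 (SD, n = 3) in GFP-negative and 12.00 ± 0.061 (SD, n = 3) in GFP-positive cells (log2 change 3.35 ± 0.24 SE, limma adjusted p = 0.000916), and the change was 1.69 where the probe sets of Ebf2 were averaged. Pdgfra, the receptor on which all cells were sorted, had levels of 12.95 ± 0.043 (SD, n = 3) in GFP-negative and 13.14 ± 0.090 (SD, n = 3) in GFP-positive cells. No array stood apart within its group by correlation, and having 3 arrays a group limits the precision. Levels of different probe sets are not comparable, so only differences are set side by side.

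Of the 31 genes, 3 rose and 4 fell in GFP-positive cells. The receptor Plxna4 fell most, by 1.96 on the log2 scale, and the receptor Plxnd1 and the ligands Sema3e and Sema4d fell by between 0.40 and 0.56. The receptor Plxnc1 rose by 0.70, and the membrane ligands Sema5b and Sema6c rose by 0.44 and 0.37. The called genes make up 22.6% of the members, beside 6.49% of all genes tested (2.65% higher and 3.84% lower). Among genes with a mean at or above log2 6.78, the 40th percentile of gene means that serves here as a mark of dim genes, 9.75% were called. The members hold 28 such genes, and 7 of these were called. The median change of the 31 members was -0.080, beside 0.016 for all genes, and the median absolute change was 0.22, beside 0.080. At a difference of at least 2-fold, Plxna4 alone of the 31 was called, beside 1.74% of all genes. Of the 1439 calls over all genes 40.9% were higher, and after centring on the median of the named genes 53.7% of the calls were. In the same GFP-positive cells 15 of 16 macrophage and 16 of 16 chondrocyte marker genes fell, and their part in these changes was not tested.

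**Figure D1:**
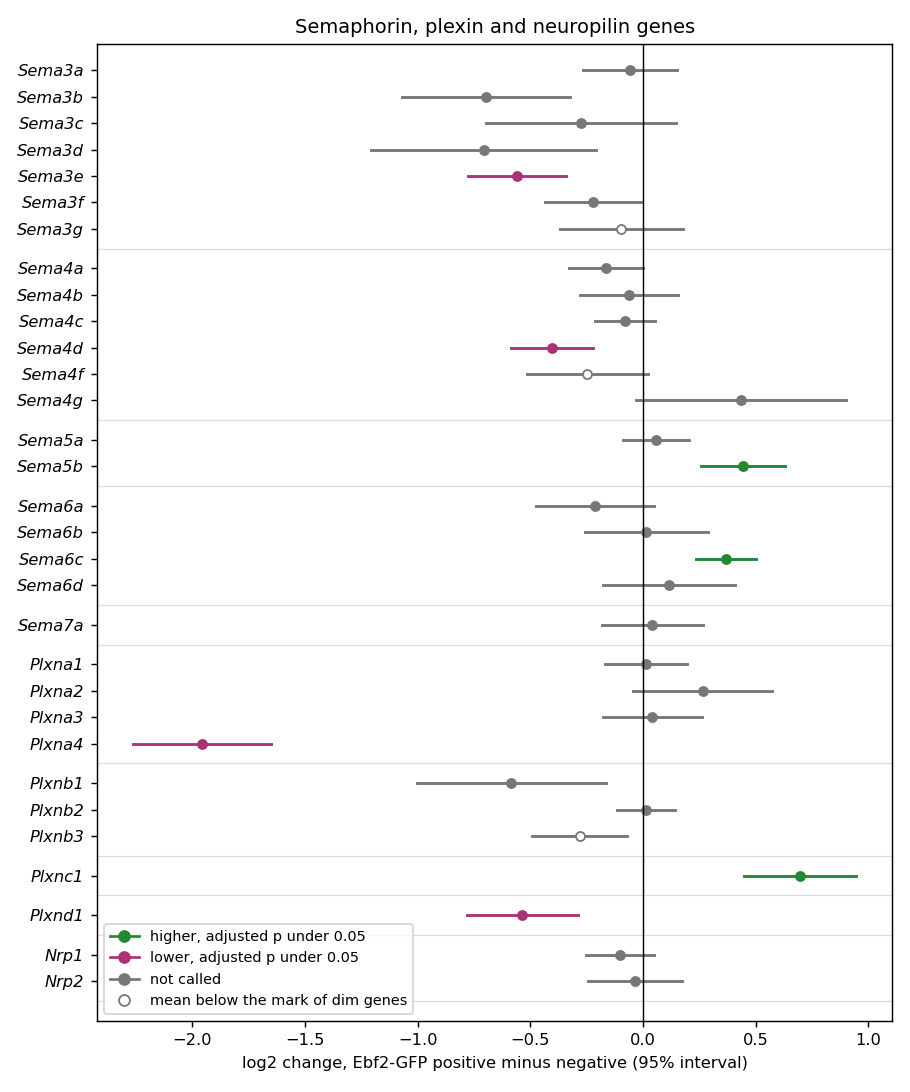
Log2 change (x axis, GFP-positive minus GFP-negative) of the 31 genes by class, with the 95% interval of limma's fit to 6 arrays; green and purple mark adjusted p under 0.05 and open circles a mean under the mark of dim genes. Plxna4 at -1.96 lies apart, and Plxnc1, Sema5b and Sema6c lie above 0. All 7 class 3 semaphorins and 5 of the 6 of class 4 lie below 0.

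With the arrays of equal replicate number treated as a pair, 4 members rose and 8 fell, which included all 7 genes called without the pairing. Over all genes the calls then numbered 2228 instead of 1439, or 10% of the genes (4.55% higher and 5.49% lower). The labels do not say what a shared number means, so this pairing is inferred from the data. The groups did not overlap on any array for 11 of the 31 genes, 3 of them higher and 8 lower, beside 22% of all genes (12.3% higher and 9.78% lower). All 7 called genes were among the 11. Without adjustment, 13 of the 31 had p under 0.05, beside 17.7% of all genes.

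The secreted class 3 semaphorins, which repel or attract axons, neural crest cells and vessels, had changes below 0 for 7 of 7 genes, and 1 of them, Sema3e, fell. The count below 0 was 5 of 7 without GFP-negative replicate 2 and 6 of 7 without GFP-positive replicate 2 or with the arrays centred on the median of the named genes, where Sema3a turned above 0. Over all genes, 9738 of 22180 changes were below 0, as were those of 19 of the 31 members and 5 of the 6 class 4 semaphorins. The median change of class 3 was -0.28, with a range from -0.71 to -0.056.

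Sema3e binds the receptor Plxnd1 directly, without a neuropilin, and is known for keeping vessels out of the somites. Its levels were 8.16, 8.47 and 8.41 in GFP-negative replicates 1, 2 and 3 and 7.75, 7.76 and 7.86 in GFP-positive replicates 1, 2 and 3. The 3 GFP-positive arrays lay close together, and all were below every GFP-negative array. The gene fell 1.47-fold (log2 change -0.56 ± 0.092 SE, limma adjusted p = 0.0172). The call held without GFP-negative replicate 1 and ended without any other single array, with an adjusted p of up to 0.0816.

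Sema3b, a neuropilin ligand, missed the threshold by little. Its levels were 8.49, 8.64 and 8.92 in the GFP-negative and 7.74, 7.97 and 8.25 in the GFP-positive replicates 1, 2 and 3. The groups did not overlap, and in both groups replicate 3 was highest and replicate 1 lowest. The change was -0.70 ± 0.16 SE (limma adjusted p = 0.0504), and the differences within replicate numbers were -0.75, -0.67 and -0.66. With the replicate block the gene passed (limma adjusted p = 0.00296), as it did under 7 of the other alternatives. Over all alternatives without the block, passed or not, its adjusted p lay between 0.0311 and 0.165. Of the fits that left out an array, only that without GFP-positive replicate 3 called it.

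Sema3d, which guides axons, neural crest and endothelial cells, showed the same order of replicates. Its levels were 10.77, 11.25 and 11.39 in the GFP-negative and 10.22, 10.26 and 10.80 in the GFP-positive arrays. GFP-positive replicate 3 lay just above GFP-negative replicate 1, so that the groups overlapped, while every difference within a replicate number was negative (-0.55, -0.98 and -0.59). The change of -0.71 ± 0.21 SE (limma adjusted p = 0.122) passed with the replicate block alone (adjusted p = 0.0157).

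Sema3c, best known from the outflow tract of the heart, had levels of 12.24, 12.60 and 12.82 in GFP-negative and 12.11, 12.17 and 12.55 in GFP-positive arrays, again with replicate 3 highest and replicate 1 lowest in each group. Its change of -0.28 ± 0.18 SE (limma adjusted p = 0.507) did not pass, with or without the block (adjusted p = 0.0880). Sema3f, which repels axons that bear Nrp2, ran the other way over the replicates, at 11.25, 11.06 and 10.94 in GFP-negative and 10.94, 10.85 and 10.79 in GFP-positive arrays. GFP-negative replicate 3 and GFP-positive replicate 1 had the same level, and the change was -0.22 ± 0.090 SE (limma adjusted p = 0.262).

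Sema3a, the classical repellent of sensory and motor axons, changed by -0.056 with a 95% interval of -0.26 to 0.15. Its levels were 9.98, 10.24 and 10.07 in the GFP-negative and 10.07, 9.92 and 10.12 in the GFP-positive arrays, which overlapped throughout. Sema3g, a class 3 member that is strong in endothelium, had a mean below the mark of dim genes and changed by -0.096 (95% interval -0.37 to 0.18). In the gene order of assembly GRCm38.p6, Sema3d and Sema3a are next to each other on chromosome 5, with 3 protein-coding genes between Sema3a and Sema3e and 15 between Sema3e and Sema3c. The changes along this stretch were -0.71, -0.056, -0.56 and -0.28, so the smallest lay between larger ones. Sema3b and Sema3f share a stretch of chromosome 9 with 3 genes between them and changed by -0.70 and -0.22.

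**Figure D2:**
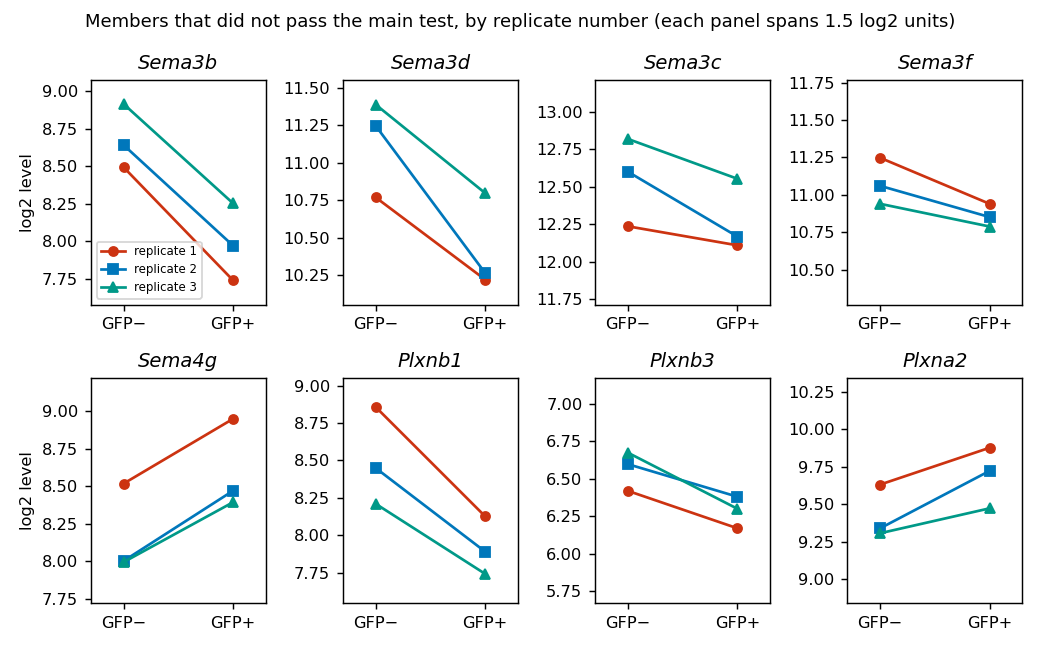
Log2 level (y axis) of 8 members that did not pass without pairing, on GFP-negative and GFP-positive arrays, with lines that join equal replicate numbers and panels of equal height; these genes were chosen after their values were seen. In each panel all 3 lines slope the same way, down for Sema3b, Sema3d, Sema3c, Sema3f, Plxnb1 and Plxnb3 and up for Sema4g and Plxna2.

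Of the 6 membrane-bound class 4 semaphorins, 1 fell and none rose (16.7% called, beside 6.49% of all genes). Sema4d, also named CD100, is a ligand of Plxnb1 that is strong on immune cells. It had levels of 7.55, 7.70 and 7.76 in the GFP-negative and 7.34, 7.27 and 7.18 in the GFP-positive replicates 1, 2 and 3. Every GFP-positive array lay below every GFP-negative array, and the closest levels, those of replicate 1 in each group, were 0.20 apart. The gene fell 1.32-fold (log2 change -0.40 ± 0.076 SE, limma adjusted p = 0.0283). The call ended after quantile normalization (adjusted p = 0.0508) and without any single array other than GFP-negative replicate 1 (up to 0.104).

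Sema4g, a member of less studied function, had levels of 8.52, 8.001 and 7.99 in the GFP-negative and 8.95, 8.47 and 8.39 in the GFP-positive arrays. Replicate 1 was highest in both groups, and GFP-negative replicate 1 lay above GFP-positive replicates 2 and 3. The change of 0.43 ± 0.20 SE (limma adjusted p = 0.324) did not pass, whereas the differences within replicate numbers were 0.43, 0.47 and 0.40, nearly equal, and the gene passed with the block (adjusted p = 0.00922). Sema4f had a mean below the mark of dim genes, with levels of 6.85, 6.79 and 6.45 in GFP-negative and 6.46, 6.52 and 6.38 in GFP-positive arrays. Its change of -0.25 ± 0.11 SE (limma adjusted p = 0.328) passed without GFP-negative replicate 3 alone (adjusted p = 0.0455).

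Sema4a, a ligand with roles in immune cells and the retina, changed by -0.17 ± 0.069 SE (limma adjusted p = 0.282), and its groups did not overlap. Sema4b and Sema4c, whose products carry cytoplasmic ends that bind synaptic scaffold proteins, changed by -0.061 (95% interval -0.28 to 0.16) and -0.080 (95% interval -0.21 to 0.053). Both intervals are narrow and include 0.

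Of the class 5 semaphorins, which carry thrombospondin repeats beside the sema domain, Sema5b rose and Sema5a did not pass. Sema5b, a repellent of axons, had levels of 10.33, 10.41 and 10.55 in the GFP-negative and 10.96, 10.78 and 10.89 in the GFP-positive replicates 1, 2 and 3. The groups did not overlap, and the gap between them was about as wide as the range within the GFP-negative group. The gene rose 1.36-fold (log2 change 0.44 ± 0.078 SE, limma adjusted p = 0.0216), and the call ended without any single array other than GFP-negative replicate 3 (adjusted p up to 0.0907). Sema5a was at 12.26, 12.26 and 12.21 in GFP-negative and 12.27, 12.23 and 12.40 in GFP-positive arrays, a change of 0.058 with a 95% interval of -0.090 to 0.21. The difference between the changes of the 2 genes was not tested.

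Of the 4 transmembrane class 6 semaphorins, 1 rose and none fell (25% called, beside 6.49% of all genes). Sema6c had levels of 9.49, 9.46 and 9.58 in the GFP-negative and 9.87, 9.86 and 9.91 in the GFP-positive replicates 1, 2 and 3. It had the smallest standard error of the 7 called genes, with an SD of 0.063 and 0.028 (n = 3 each), and the groups were clearly apart. The rise was 1.29-fold (log2 change 0.37 ± 0.055 SE, limma adjusted p = 0.0121), and the call held without any 1 GFP-negative array and ended without any 1 GFP-positive array (up to 0.0575). Sema6a, a ligand of Plxna2 and Plxna4, was at 11.44, 11.21 and 11.02 in GFP-negative and 10.96, 11.09 and 10.98 in GFP-positive arrays and changed by -0.21 ± 0.11 SE (limma adjusted p = 0.396). Sema6b, another ligand of Plxna4, changed by 0.015 (95% interval -0.26 to 0.29), and Sema6d, a ligand of Plxna1, by 0.11 (95% interval -0.18 to 0.41). Sema7a, a ligand of Plxnc1 and of integrins, changed by 0.042 (95% interval -0.18 to 0.26), with overlapping groups at 7.90, 8.03 and 7.80 in GFP-negative and 7.87, 8.11 and 7.88 in GFP-positive arrays.

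Among the receptors, 1 of 9 plexins rose and 2 fell. This is 33.3% called, beside 6.49% of all genes and 9.75% of those at or above the mark of dim genes. Plxna4, which with neuropilins transmits class 3 signals and by itself binds Sema6a and Sema6b, is best known from sensory and sympathetic neurons. Its levels were 10.36, 10.10 and 9.84 in the GFP-negative replicates 1, 2 and 3 and 8.22, 8.12 and 8.09 in the GFP-positive replicates 1, 2 and 3. Every GFP-negative array stood above every GFP-positive array, with a gap far wider than the spread within either group. The gene fell 3.88-fold (log2 change -1.96 ± 0.13 SE, limma adjusted p = 0.000609, 95% interval -2.26 to -1.65). It was called under every alternative run, those that left out an array included, with an adjusted p of up to 0.00802. In order of size its change ranked 95 among the 22180 genes. In bulk samples such as these, fewer cells that carry a transcript and less of it in each cell cannot be told apart.

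Plxna4os1, annotated as an antisense gene of Plxna4, has a probe set of its own with a mean below the mark of dim genes. It changed by -0.0038 (95% interval -0.25 to 0.24). Plxna1, Plxna2 and Plxna3, the other A plexins, did not pass. Plxna1 was at 11.70, 11.56 and 11.63 in GFP-negative and 11.76, 11.53 and 11.64 in GFP-positive arrays (change 0.013, 95% interval -0.17 to 0.19), and its other probe set changed by 0.042. Plxna3 changed by 0.042 (95% interval -0.18 to 0.26). Plxna2 was at 9.63, 9.34 and 9.31 in GFP-negative and 9.88, 9.72 and 9.47 in GFP-positive arrays, and all 3 differences within a replicate number were positive (0.25, 0.38 and 0.17). Its change of 0.26 ± 0.13 SE (limma adjusted p = 0.368) did not pass, and did not with the block either (adjusted p = 0.0644).

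Plxnb1, the receptor of Sema4d, was at 8.86, 8.45 and 8.21 in the GFP-negative and 8.13, 7.89 and 7.74 in the GFP-positive replicates 1, 2 and 3. The groups did not overlap, and in both replicate 1 was highest and replicate 3 lowest. Its change of -0.59 ± 0.18 SE (limma adjusted p = 0.127) passed with the replicate block alone (adjusted p = 0.00953). The other Plxnb1 probe set, with a mean near the mark of dim genes, changed by -0.21 (limma adjusted p = 0.472 in a fit of single probe sets). Plxnb3, a receptor of Sema5a whose mean lay below that mark, was at 6.42, 6.60 and 6.67 in GFP-negative and 6.17, 6.38 and 6.30 in GFP-positive arrays and also passed with the block alone (log2 change -0.28 ± 0.088 SE, limma adjusted p = 0.144, or 0.0426 with the block). Plxnb2, a receptor of class 4 semaphorins, had the narrowest interval of the plexins. Its levels were 12.46, 12.39 and 12.42 in GFP-negative and 12.49, 12.39 and 12.42 in GFP-positive arrays, a change of 0.013 (95% interval -0.12 to 0.14).

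Plxnc1, the receptor of Sema7a, had levels of 9.84, 9.71 and 10.02 in the GFP-negative and 10.67, 10.59 and 10.40 in the GFP-positive replicates 1, 2 and 3. Replicate 3 brought the groups closest, with the highest GFP-negative and the lowest GFP-positive level. The gene rose 1.62-fold (log2 change 0.70 ± 0.10 SE, limma adjusted p = 0.0122), the largest rise of the 31, and the call ended without GFP-positive replicate 1 or 2 (adjusted p up to 0.0634). Its ligand Sema7a, given above, did not pass.

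Plxnd1, the receptor of Sema3e, is a gene of endothelium and other tissues that is needed for the pattern of the vessels between somites. It had levels of 10.31, 10.14 and 10.52 in the GFP-negative and 9.71, 9.86 and 9.81 in the GFP-positive replicates 1, 2 and 3. Each GFP-positive array lay below each GFP-negative array, most narrowly for replicate 2. The gene fell 1.45-fold (log2 change -0.54 ± 0.10 SE, limma adjusted p = 0.0298). The call held without GFP-negative replicate 2 and ended without any other single array (up to 0.122). Sema3e and Plxnd1 are thus a ligand and its receptor that both fell, by 0.56 and 0.54. For Sema4d and Plxnb1 the ligand fell and the receptor passed with the block, and for Sema7a and Plxnc1 the receptor rose and the ligand did not pass.

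**Figure D3:**
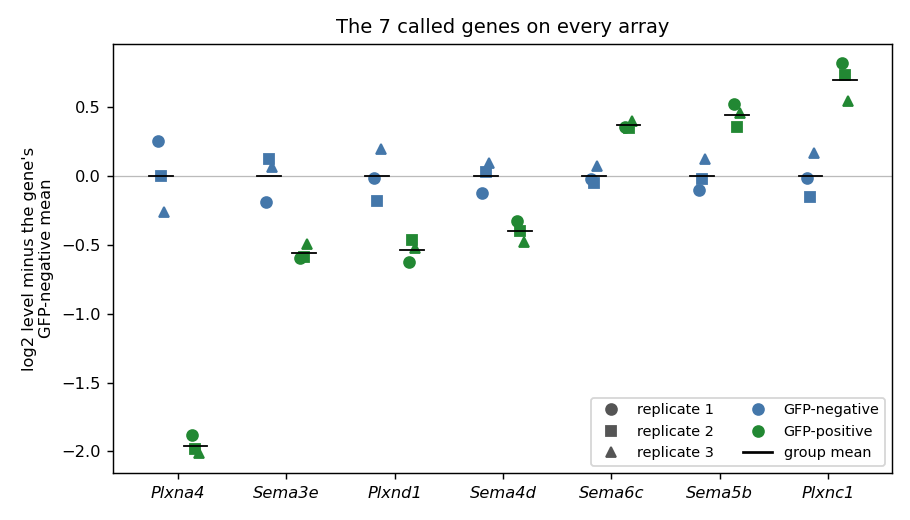
Log2 level of the 7 called genes on every array, minus the gene's mean in GFP-negative cells (y axis); symbols give the replicate number, colours the group and bars the group means. The groups of each gene are apart, with group means 1.96 apart for Plxna4 and 0.37 to 0.70 apart for the other 6 genes.

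Neither neuropilin passed limma's test (unadjusted p = 0.149 for Nrp1 and 0.702 for Nrp2). Nrp1, coreceptor of Sema3a and of vascular endothelial growth factor, was at 11.99, 12.10 and 11.92 in GFP-negative and 11.91, 11.92 and 11.88 in GFP-positive arrays, the latter with an SD of 0.019 (n = 3). Its change was -0.10 (95% interval -0.25 to 0.047). Nrp2, coreceptor of Sema3f and of lymphatic growth factors, was at 11.54, 11.46 and 11.34 in GFP-negative and 11.53, 11.42 and 11.27 in GFP-positive arrays, with replicate 1 highest and replicate 3 lowest in both groups. Its change was -0.035 (95% interval -0.24 to 0.17), so both intervals lie well within a 2-fold difference. Of the 24 members that did not pass, 21 had a 95% interval within a 2-fold change in either direction. The other 3 were Sema3b, Sema3d and Plxnb1, whose intervals reached -1.07, -1.21 and -1.004.

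The differences within replicate numbers were of the same sign in all 3 pairs for 22 of the 31 genes, negative for 17 and positive for 5. Of all genes, 44.3% had the same sign in all 3, 18.7% negative and 25.6% positive. The 5 positive genes were Plxnc1, Sema5b, Sema6c, Sema4g and Plxna2.

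For a ligand and receptor that fell together and for 2 genes that rose, the bases before the start of transcription are given, read from RefSeq's promoter table of build GRCm38.p6. The table held 26 of the 31 genes, and Plxna1, Plxna4, Sema3b, Sema3f and Sema6a were not among them. Each run covers the 250 bases upstream of the annotated start, 5′ to 3′ on the gene's strand. Capitals mark the GC box GGGCGG on either strand, to which factors of the Sp family bind.
Sema3e, chr5:14025026-14025275, plus strand: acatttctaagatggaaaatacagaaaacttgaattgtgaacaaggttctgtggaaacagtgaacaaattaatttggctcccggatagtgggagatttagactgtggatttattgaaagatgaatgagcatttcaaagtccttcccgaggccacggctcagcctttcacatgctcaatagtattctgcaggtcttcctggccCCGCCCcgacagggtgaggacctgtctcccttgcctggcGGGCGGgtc
Plxnd1, chr6:115995006-115995255, minus strand: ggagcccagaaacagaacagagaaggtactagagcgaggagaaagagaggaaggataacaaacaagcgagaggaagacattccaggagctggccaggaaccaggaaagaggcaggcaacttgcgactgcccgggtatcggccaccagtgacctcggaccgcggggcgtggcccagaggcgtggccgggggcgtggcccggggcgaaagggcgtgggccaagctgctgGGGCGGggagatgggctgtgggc
Plxnc1, chr10:94944846-94945095, minus strand: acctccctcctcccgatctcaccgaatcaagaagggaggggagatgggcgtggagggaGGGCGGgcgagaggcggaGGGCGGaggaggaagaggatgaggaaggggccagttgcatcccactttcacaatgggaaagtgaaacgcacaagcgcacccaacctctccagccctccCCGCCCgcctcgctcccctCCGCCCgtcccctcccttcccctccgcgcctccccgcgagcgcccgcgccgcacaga
Sema5b, chr16:35541112-35541361, plus strand: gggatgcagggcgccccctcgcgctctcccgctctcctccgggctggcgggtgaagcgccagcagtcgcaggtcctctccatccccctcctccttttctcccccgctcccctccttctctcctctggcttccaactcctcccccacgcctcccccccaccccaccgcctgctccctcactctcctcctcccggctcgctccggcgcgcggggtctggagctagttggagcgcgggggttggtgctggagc

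Plxnc1 held 4 GC boxes between 52 and 187 bases before the start, Sema3e 2, Plxnd1 1 and Sema5b none. The GC content was 68.8%, 48%, 64.8% and 72% for Plxnc1, Sema3e, Plxnd1 and Sema5b. Over all 32851 windows of the table, 32.7% held a GC box, as did 27 of the 37 windows of the member genes. The core CCCNNGGG, which early B cell factors recognise, reads the same on both strands and was in 11.8% of all windows and in 7 of the 37 windows of the members. These belonged to Plxna3, Plxnb1, Plxnb3, Sema3g, Sema4a, Sema4c and Sema5a, none of which was called. The windows of Plxnc1, Plxnd1, Sema3e, Sema4d, Sema5b and Sema6c did not hold it. The TATA motif TATAAA, searched on both strands, was in 12.4% of all windows and in none of the 37 windows of the members. Matches of these motifs can overlap. Such matches describe letters in these windows and show no binding.

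Other genes of semaphorin signalling were taken from 4 lists with 60 genes, of which 55 were measured. Among these, 3 rose and 5 fell, or 8 of 55, beside 6.49% of all genes. Of genes at or above the mark of dim genes, where all but 2 of the 55 lay, 9.75% were called. With the replicate block 6 rose and 10 fell, beside 10% of all genes called in that fit. The vascular endothelial growth factors, which share neuropilins with class 3 semaphorins, had 1 of 5 genes lower. Vegfd, a growth factor of lymphatic vessels, was at 11.36, 11.65 and 11.67 in the GFP-negative and 10.002, 10.26 and 10.60 in the GFP-positive arrays. The groups did not overlap, and the gene fell 2.41-fold (log2 change -1.27 ± 0.16 SE, limma adjusted p = 0.00676), a call that held without any 1 array (up to 0.0416). Vegfa, the main factor of blood vessels, changed by 0.20 ± 0.064 SE (limma adjusted p = 0.157), and Vegfc by -0.28 ± 0.067 SE (limma adjusted p = 0.0633), with an adjusted p of 0.0292 with the block.

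Of 14 measured coreceptors and alternative receptors, 2 fell and none rose (5 and 1 with the block). The share called among all genes was 6.49%, and 9.75% of those at or above the mark of dim genes. With the block it was 10% of all genes. Itga1, the α1 subunit of an integrin that binds collagen and Sema7a, was at 9.69, 9.87 and 9.67 in GFP-negative and 8.83, 9.06 and 8.98 in GFP-positive arrays and fell 1.73-fold (log2 change -0.79 ± 0.084 SE, limma adjusted p = 0.00362). The call held without any 1 array (adjusted p up to 0.0213). Its partner subunit Itgb1, next to Nrp1 in the gene order, changed by -0.032 ± 0.051 SE (limma adjusted p = 0.824). Met, the receptor of hepatocyte growth factor and a partner of Plxnb1, was at 9.60, 9.70 and 9.58 in GFP-negative and 8.80, 8.65 and 9.18 in GFP-positive arrays and fell 1.68-fold (log2 change -0.75 ± 0.13 SE, limma adjusted p = 0.0220). The call of Met held without GFP-positive replicate 3 and ended without any other single array (up to 0.100). Chl1, an adhesion gene whose product associates with Nrp1, was at 9.25, 9.88 and 10.16 in the GFP-negative and 8.23, 8.43 and 8.98 in the GFP-positive arrays. Its groups did not overlap, and its change of -1.22 ± 0.27 SE (limma adjusted p = 0.0510) narrowly missed the threshold and passed with the block (0.00315). Nrcam, whose product associates with Nrp2, changed by -0.93 ± 0.24 SE (limma adjusted p = 0.0815) and also passed with the block (0.0294).

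Of the 8 genes of collapsin response mediators and Mical enzymes, which act on microtubules and actin downstream of plexins, 1 rose and 1 fell. The share called was 25%, beside 6.49% of all genes and 9.75% of those at or above the mark of dim genes. Crmp1 was at 8.81, 8.88 and 8.80 in GFP-negative and 9.16, 9.16 and 9.24 in GFP-positive arrays and rose 1.28-fold (log2 change 0.35 ± 0.054 SE, limma adjusted p = 0.0135). Dpysl5, another mediator, was at 8.16, 8.03 and 7.86 in GFP-negative and 7.60, 7.65 and 7.53 in GFP-positive arrays and fell 1.34-fold (log2 change -0.43 ± 0.085 SE, limma adjusted p = 0.0348). Without any 1 GFP-positive array the call of Crmp1 ended (up to 0.0585). The call of Dpysl5 held without GFP-negative replicate 3 and ended without any other single array and after centring on the named genes (up to 0.127).

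Of 28 measured cytoplasmic effectors, 2 rose and 1 fell, or 10.7%, beside 6.49% of all genes. This share is near the 9.75% called among genes at or above the mark of dim genes. Tiam1, an activator of the GTPase Rac, was at 9.28, 9.07 and 8.93 in GFP-negative and 10.05, 9.93 and 9.75 in GFP-positive arrays and rose 1.76-fold (log2 change 0.82 ± 0.11 SE, limma adjusted p = 0.00947). The groups were apart, and the call ended without GFP-positive replicate 2 alone (adjusted p = 0.0517). Rnd2, a GTPase of the Rnd family that binds plexins, rose 1.21-fold (log2 change 0.28 ± 0.057 SE, limma adjusted p = 0.0374), and the Ras family gene Mras fell 1.25-fold (log2 change -0.32 ± 0.059 SE, limma adjusted p = 0.0266). The call of Rnd2 ended without any 1 array, after quantile normalization and after median centring (up to 0.133). That of Mras held without GFP-positive replicate 1 and ended without any other single array and after centring on the named genes (up to 0.102). The median change of the effectors was 0.044, and those of Rac1 and Rhoa, the GTPases at the centre of the pathway, were 0.031 and 0.033.

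**Figure D4:**
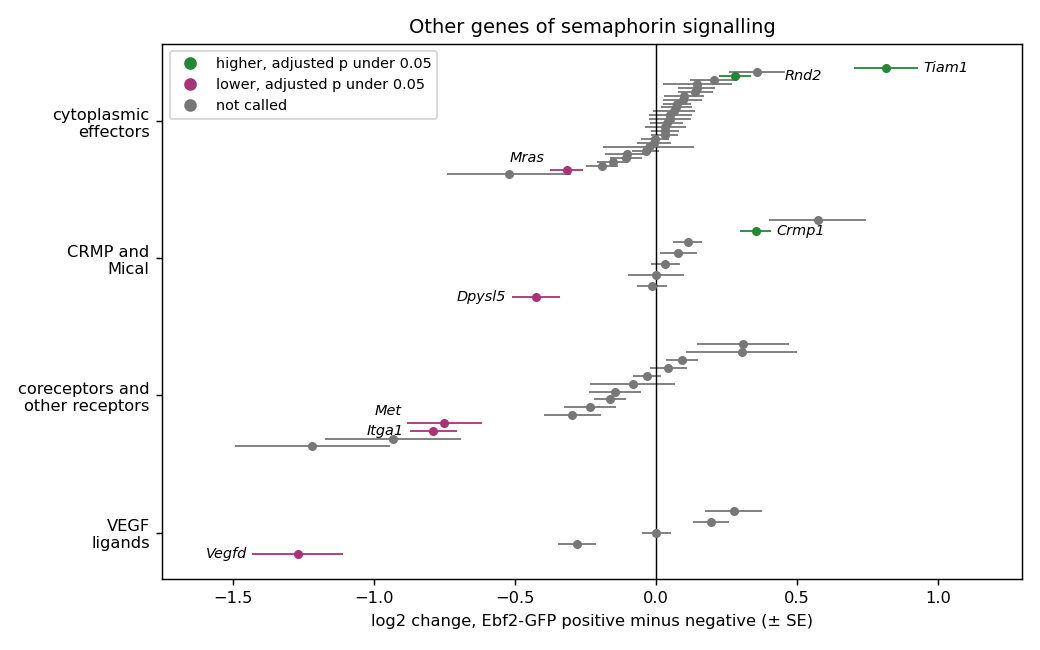
Log2 change with limma's standard error (x axis) of the 55 measured genes of 4 lists of semaphorin signalling (y axis), of which the 8 called genes are named. Tiam1 at 0.82 and Vegfd at -1.27 are the largest called changes in each direction.

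Markers of some other cell types differed between the groups, and the means of other lists overlapped. Over all genes 6.49% were called, and 9.75% of those at or above the mark of dim genes. Of 16 macrophage genes, 15 fell and none rose, and the mean level of the list was 9.54, 9.05 and 9.94 in GFP-negative replicates 1, 2 and 3 and 7.01, 7.67 and 7.90 in GFP-positive replicates 1, 2 and 3. Adgre1, a defining macrophage gene, was at 10.23 ± 0.62 (SD, n = 3) in GFP-negative and 6.92 ± 0.82 (SD, n = 3) in GFP-positive cells. Ptprc, which fell, and Cd163, which did not pass, had 6-array means below the mark of dim genes. The mean of Ptprc was 7.55 in GFP-negative cells, above the mark, and 5.80 in GFP-positive cells. Of 16 chondrocyte genes, 16 fell, with list means of 10.39 to 10.66 on the GFP-negative arrays and 8.92 to 9.21 on the GFP-positive arrays. Of 8 measured Schwann cell and neural crest genes, 3 fell and none rose, with list means of 8.51 to 8.70 on the GFP-negative arrays and 7.62 to 7.94 on the GFP-positive arrays. Sox10, which defines that lineage, fell by 0.62 (limma adjusted p = 0.0210).

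Of 16 endothelial genes, 2 fell and 1 rose (18.8%, beside 6.49% of all genes and 9.75% of those at or above the mark). The list means were 8.52 to 9.02 on the GFP-negative arrays and 8.42 to 8.66 on the GFP-positive arrays. Cdh5, a defining endothelial gene, fell by 1.00 (limma adjusted p = 0.0160) and Pecam1 changed by -0.38 (0.554). Emcn, the endothelial gene that rose, did so by 0.94 (limma adjusted p = 0.0214). Of the 16 changes, 3 were above 0 and 13 below. Of 12 mural genes, 4 fell and 1 rose (41.7%), with list means of 9.90 to 10.01 on the GFP-negative arrays and 9.78 to 9.83 on the GFP-positive arrays. Of 11 measured neuronal genes, 2 fell and 1 rose (27.3%). Their changes ran from -0.83 to 0.97, with 5 above 0 and 6 below. The list means overlapped, at 7.87 to 7.91 on the GFP-negative arrays and 7.83 to 7.90 on the GFP-positive arrays. Of 15 skeletal muscle genes 2 rose (13.3%), and of 9 measured keratinocyte genes 1 fell (11.1%). The means of both lists overlapped between the groups. The endothelial list shares Kdr and Flt1, and the mural list Cspg4, with the coreceptors.

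**Figure D5:**
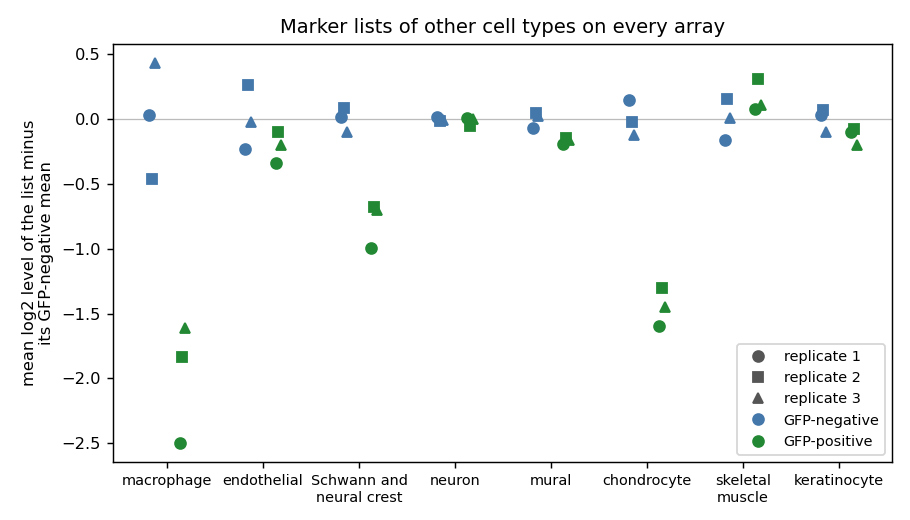
Mean log2 level of 8 marker lists on every array, minus the list's mean over the GFP-negative arrays (y axis); symbols give the replicate number and colours the group. The macrophage, chondrocyte, Schwann and mural lists were lower on all 3 GFP-positive arrays than on any GFP-negative array, the mural list by least. The mean of the neuronal list lay near 0 on all 6, while its single genes changed by -0.83 to 0.97.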

How the data were processed

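The deposited table holds log2 expression values of 41345 probe sets on 6 arrays, 3 for each sorted population. RMA, which corrects background, normalizes and summarises probes, and limma are named in the submitters' processing notes, with versions and settings not given in the sources used here. Array medians lay between 6.66 and 6.71, so the values were used as deposited.

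Probe sets were named from the platform annotation: 23521 had 1 gene symbol, 1814 several and 16010 none, and only the first kind was used. Where several probe sets (1082 genes) carried a symbol, the one with the highest mean over the 6 arrays stood for the gene, which gave 22180 genes. Groups came from the sample titles. limma 3.58.1 (R 4.3.3) was fitted to all genes with lmFit and eBayes, with Benjamini-Hochberg adjustment over all of them. By rule, members that passed, or did so under an alternative, were given with every array. The rest were given in brief, with values where needed to show how a class divides. Sema3a, Sema3c, Sema3f, Sema5a, Sema6a, Sema7a, Plxna1, Plxna2, Plxnb2, Nrp1 and Nrp2 passed under no alternative and were also given with every array. Up to 4 called genes of each pathway list and up to 2 defining genes of each marker list were named. Vegfa, Vegfc, Itgb1, Chl1, Nrcam, Rac1, Rhoa, Cd163 and Emcn fall outside the rule and were added after their values were seen. The members and gene lists were chosen with earlier results of these data known.

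Deviations from group means correlated at 0.41, 0.31 and 0.52 over genes for arrays of equal replicate number, and at -0.38 to -0.024 for the others. The main fit used the group alone. In the replicate block, an alternative, equal numbers were taken to pair the arrays, a pairing that comes from the data. Deviations cancel out within a group, so positive correlations of equal numbers push the others down. The fit was tested on simulated data with 200 changed genes per run. It recovered 52.4% of changes of size 0.5, 85.1% of size 1 and 99.1% of size 2, so small changes were often missed there. The data gave 1439 calls, more than the 200 changed genes of a run, so these shares need not hold for the data. Alternatives were quantile normalization, median centring (over probe sets, or, chosen after seeing the data, over named genes), probe set rules, a filter on dim genes, eBayes options, array weights, a stricter threshold, the replicate block and leaving out each array. Cd72, Rap1a, Rhod, Pak1 and Ttbk2 of the pathway lists were not analysed here. Promoters are from RefSeq (GRCm38.p6).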

Additional observations from a re-analysis of the deposited data

How the results depend on the processing

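With 3 arrays a group, each called member other than Plxna4 lost its call without 1 or more of the single arrays. Leaving out each array in turn gave 0 to 3 higher and 1 to 3 lower members, 629 to 1067 calls over all genes, and 0 to 4 higher and 2 to 4 lower pathway genes. The low end of 0 higher members comes from limma's adjusted p, and Plxna4 was called each time. With the replicate block 8 members were lower, all genes gave 2228 calls, and 6 pathway genes were higher and 10 lower. At an adjusted p of 0.01, limma gave 0 higher members and 1 lower, 539 calls over all genes, and 1 higher and 2 lower pathway genes. Centring on the named genes moved the median change of the members to -0.024 and turned Nrp2 to 0.021 and Sema3a to 0.00042. Quantile normalization turned Plxnb2 to -0.0046, and array weights turned Plxna1 to -0.0020 and Sema6b to -0.0049. With an array left out, some small changes took either sign: Nrp2 ranged from -0.095 to 0.034, Sema4b from -0.12 to 0.016, Sema6b from -0.088 to 0.095, Plxna1 from -0.045 to 0.069 and Plxna3 from -0.031 to 0.12. Plxnb2 ranged from -0.017 to 0.035, Sema3a from -0.11 to 0.016, Sema3g from -0.20 to 0.026, Sema6d from -0.018 to 0.22 and Sema7a from -0.038 to 0.10. The causes were not tested. Sema3g, Sema4f and Plxnb3 lay below the mark of dim genes, where weak signal may limit what can be seen. The mark is a percentile of gene means, and signal over background was not tested.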
